A study of Mus musculus with 15 samples.

Results

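The genes described here were 87 members of 4 families of RNA-binding proteins, together with 2 single splicing factors, in the dentate gyrus (DG) of wild-type (WT) mice and of mice lacking the serotonin receptor gene Htr4 in part of their DG neurons (cKO). They were found by symbol among the 32658 symbols of each library's count table, of which 23117 had a count in at least 1 library. The set held 37 DEAD-box helicases (Ddx), 16 DEAH-box helicases (Dhx), 21 heterogeneous nuclear ribonucleoproteins (hnRNPs) and 11 serine/arginine-rich (SR) splicing factors (Srsf), plus Rbm5 and Snrnp200. The families were selected on readouts of these libraries, with the genotype differences in the ventral DG already known, while the symbols alone decided membership. Differences between genotypes in the ventral IP are therefore given as a description, and those in the ventral input, which comes from the same region, are not independent evidence of their direction. The symbols matched the family names except for Ddx26b, which RefSeq now lists as Ints6l, a subunit of the Integrator complex and not a helicase.

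DEAD-box and DEAH-box proteins use ATP to remodel RNA and RNA-protein complexes, and act from transcription and splicing through export, translation and decay. hnRNPs coat nascent transcripts and often act as splicing repressors, whereas SR proteins bind exons and recruit the spliceosome. Snrnp200, also a helicase, unwinds the U4/U6 duplex when the spliceosome is activated, and Rbm5 is an RNA-binding regulator of alternative exons. In neurons these proteins shape the isoforms of channels, receptors and synaptic proteins, and many of them travel in RNA granules.

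RNA was sequenced from 15 libraries in 6 groups, with 3 WT and 2 cKO libraries in each of ventral IP, ventral input and dorsal input, all from adults of 8 to 12 weeks. All mice carried Drd3-Cre of the KI198 line, which labels mature granule cells and hilar mossy cells of the DG, and the Rosa26-fsTRAP allele, which makes the ribosomal protein L10a fused to EGFP in those cells. cKO mice additionally carried Htr4-Floxed alleles, from which Cre removes exon 5. IP stands for mRNA bound to the tagged ribosomes, which were pulled down from ventral DG (vDG) homogenate, and input for whole-tissue mRNA of the vDG or the dorsal DG (dDG). The sample records give pools of 3 mice per IP library and 2 mice per input library. They name whole cortex as the source tissue of the inputs, while the titles and region labels give the DG, and the granule cell markers had a summed level of 2030 to 3116 CPM (counts scaled to the size of the library) in every library. Reads counted on genes ranged from 19039295 to 30451430 per library, of which the 87 members took 0.661% to 0.936%.

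The cKO vDG libraries numbered 1 stood apart, both IP and input. They held 0 counts of the Y-linked genes Ddx3y, Eif2s3y, Kdm5d and Uty, which had 103 to 700 counts each in the other libraries, and their Xist levels of 38.4 CPM (IP) and 29.5 CPM (input) were the highest of all libraries, the others lying between 3.78 and 22.2 CPM. The study's methods state that each replicate held tissue of both sexes, which these values go against for that pool. Since the IP and the input library of the same number share this feature, they cannot be taken as independent samples. The main fits of IP against input and of the genotype-by-fraction term nevertheless carry no block for this pairing. Results with the library number as a block are given further below. Among the members, Ddx3x and Hnrnph2 are X-linked. The main counts, family medians and correlations that rest on these libraries are also given without them. Htr4 itself had higher counts in cKO than in WT, by 0.93 (ventral IP), 0.85 (ventral input) and 0.75 (dorsal input) on the log2 scale, and a count over the whole gene does not show whether exon 5 was removed.

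The promoters of 77 members were present in the RefSeq table of mouse promoters (GRCm38.p6), as 100 windows of 300 bases that run from 250 before to 50 after a transcript start. Of these windows 69% held GGGCGG, the core of the GC box, against 35.7% of all 32851 windows in the table, and 32% held CCGGAAG, an ETS-type motif, against 8.86%. CCAAT was found in 48% of the members' windows and 37.4% of all windows. TGACGTCA and TATAAA were found in 6% and 10% of the members' windows, against 1.79% and 13.6% of all windows. Each motif was searched on both strands, and hits of different motifs may share bases. The median GC content was 61.7% in the members' windows and 52.7% in all windows, and base composition alone can move these shares. Of the 10 members called lower in vDG of cKO mice below, 8 had GGGCGG and 4 had CCGGAAG in at least 1 window. The last 150 bases before the start are shown for 4 of these 10 genes, picked after their values were seen because their results differ most in kind. Among the 10, Snrnp200 and Dhx9 had the largest differences of IP over input in WT, Ddx24 had the largest genotype difference in the input, and Rbm5 had the largest in the IP among members with at least 5 CPM. Capitals mark GGGCGG or CCGGAAG, which read CCGCCC or CTTCCGG when they lie on the other strand, and each sequence runs 5′ to 3′ on the strand of its gene.

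Snrnp200 promoter: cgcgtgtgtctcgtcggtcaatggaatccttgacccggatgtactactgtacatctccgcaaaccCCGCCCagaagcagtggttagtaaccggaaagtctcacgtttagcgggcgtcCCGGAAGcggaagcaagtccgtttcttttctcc

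Dhx9 promoter: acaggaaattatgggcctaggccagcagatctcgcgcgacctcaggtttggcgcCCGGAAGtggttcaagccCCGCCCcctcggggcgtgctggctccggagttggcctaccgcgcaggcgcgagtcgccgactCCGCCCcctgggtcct

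Ddx24 promoter: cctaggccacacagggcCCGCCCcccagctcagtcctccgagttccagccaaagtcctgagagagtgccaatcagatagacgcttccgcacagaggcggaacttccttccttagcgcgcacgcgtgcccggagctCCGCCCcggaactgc

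Rbm5 promoter: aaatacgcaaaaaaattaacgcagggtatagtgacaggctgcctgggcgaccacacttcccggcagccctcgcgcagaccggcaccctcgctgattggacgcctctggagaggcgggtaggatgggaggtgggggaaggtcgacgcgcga

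These windows lie at chr2:127208236-127208385 (+ strand), chr1:153487661-153487810 (− strand), chr12:103425848-103425997 (− strand) and chr9:107771003-107771152 (− strand) of GRCm38.p6. Snrnp200 and Dhx9 hold both motifs and Ddx24 holds GGGCGG in 2 places, whereas neither string is found in the Rbm5 window. These matches describe the letters only.

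Members differed widely in level in the labelled neurons. Per kilobase of exons in the WT IP, the highest was Ddx5, a coregulator of transcription and splicing, at 144 ± 27 CPM per kb (SD, n = 3). The next were Hnrnpa2b1 at 85.1 ± 14.3 CPM per kb, Hnrnpa0 at 71.0 ± 17.6 CPM per kb and Hnrnpab at 60.9 ± 3.96 CPM per kb, whose ranges over the libraries overlapped, except that all libraries of Hnrnpab lay below those of Hnrnpa2b1. Srsf5 (51.5 ± 13.7 CPM per kb), Srsf2 (32.3 ± 2.52) and Srsf3 (31.1 ± 2.94) led the SR proteins. Ddx3x (43.6 ± 5.90 CPM per kb) and Ddx6 (33.4 ± 0.936) followed Ddx5 among the DEAD-box helicases. The DEAH-box helicases were lower, led by Dhx9 (24.1 ± 4.99 CPM per kb), Dhx15 (14.4 ± 1.29) and Dhx40 (13.99 ± 0.900). Snrnp200 stood at 33.9 ± 2.68 CPM per kb and Rbm5 at 9.31 ± 1.03 CPM per kb. At the bottom, Ddx43, Dhx58 and Ddx11 had too few counts to be tested for genotype in the IP. The remaining 84 members passed that filter there, 84 passed it in the ventral input and 82 in the dorsal input.

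In the vDG, 5 members (Ddx24, Ddx3x, Ddx5, Hnrnph1 and Snrnp200) were lower in cKO than in WT in both the IP and the input. Ddx1, Dhx9, Hnrnph2 and Hnrnpu passed the test in the input and not in the IP, and no SR protein passed in either. This split depended on the setting, since with another test (DESeq2) Dhx9, Hnrnph2 and Hnrnpu passed in the IP as well. Rbm5 passed in the IP at the study's threshold there, a false discovery rate (FDR) of 0.1, while its input FDR of 0.0936 missed the threshold of 0.05 used for inputs, so that Rbm5 passed in neither fraction at 0.05 and would pass in both at 0.1. In the ventral IP, 6 of 84 members passed FDR 0.1 and all 6 were lower (Ddx24, Ddx3x, Ddx5, Hnrnph1, Rbm5 and Snrnp200), against 0.35% of all genes called lower and 0.0699% called higher. Every cKO library lay below every WT library for 34 of the 84 members (40.5%; 16% of all genes), and above for 13 (15.5%; 15.1% of all genes). In the ventral input, 9 of 84 members passed FDR 0.05, and these were Ddx1, Ddx24, Ddx3x, Ddx5, Dhx9, Hnrnph1, Hnrnph2, Hnrnpu and Snrnp200. All 9 were lower in cKO and 0 were higher, where 2.33% of all genes were called lower and 0.108% higher. At FDR 0.1, as in the IP, 13 members (4.35% of all genes) passed in the input, all lower. There the groups did not overlap, with cKO lower, for 25 members (29.8%; 19.1% of all genes) and with cKO higher for 5 (5.95%; 13.2% of all genes). The 5 members called in both fractions are 5 of the 6 and 5 of the 9. With FDR 0.05 in both fractions none would be shared, since the lowest FDR of any gene in the IP was 0.0618. In whole tissue, fewer cells of a type and less RNA per cell cannot be told apart.

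These calls depended on the libraries that lacked Y-linked counts. Without the cKO IP library numbered 1, edgeR called 0 members in the IP (0 of all genes). Without the cKO input library numbered 1, it called 0 members in the input (6 of all genes, 0.0122% higher and 0.0245% lower). Each of these fits leaves a lone cKO library, which is assumed to vary like the WT libraries. The differences themselves remained negative for all called members, from -0.91 (Rbm5) to -0.65 (Ddx5) on the log2 scale in the IP and from -0.78 (Ddx24) to -0.36 (Hnrnpu) in the input, with a lowest FDR of 0.908 in the IP and 0.153 in the input. The lone cKO IP library lay below every WT library for 37 of the 84 members (44%; 26.2% of all genes) and above for 22 (26.2%; 26.2% of all genes). The lone cKO input library lay below for 25 of 84 members (29.8%; 29.4% of all genes) and above for 19 (22.6%; 25.3% of all genes), so that in the input the share of members below was near that of all genes. The calls were also lost in the IP without the WT library numbered 2 (0 of all genes called) or the cKO library numbered 2 (4 of all genes), with differences of the 6 members between -1.08 and -0.76. In the input they fell to 3 (Ddx24, Hnrnph2 and Snrnp200; 50 of all genes) without the cKO library numbered 2.

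**Figure D1:**
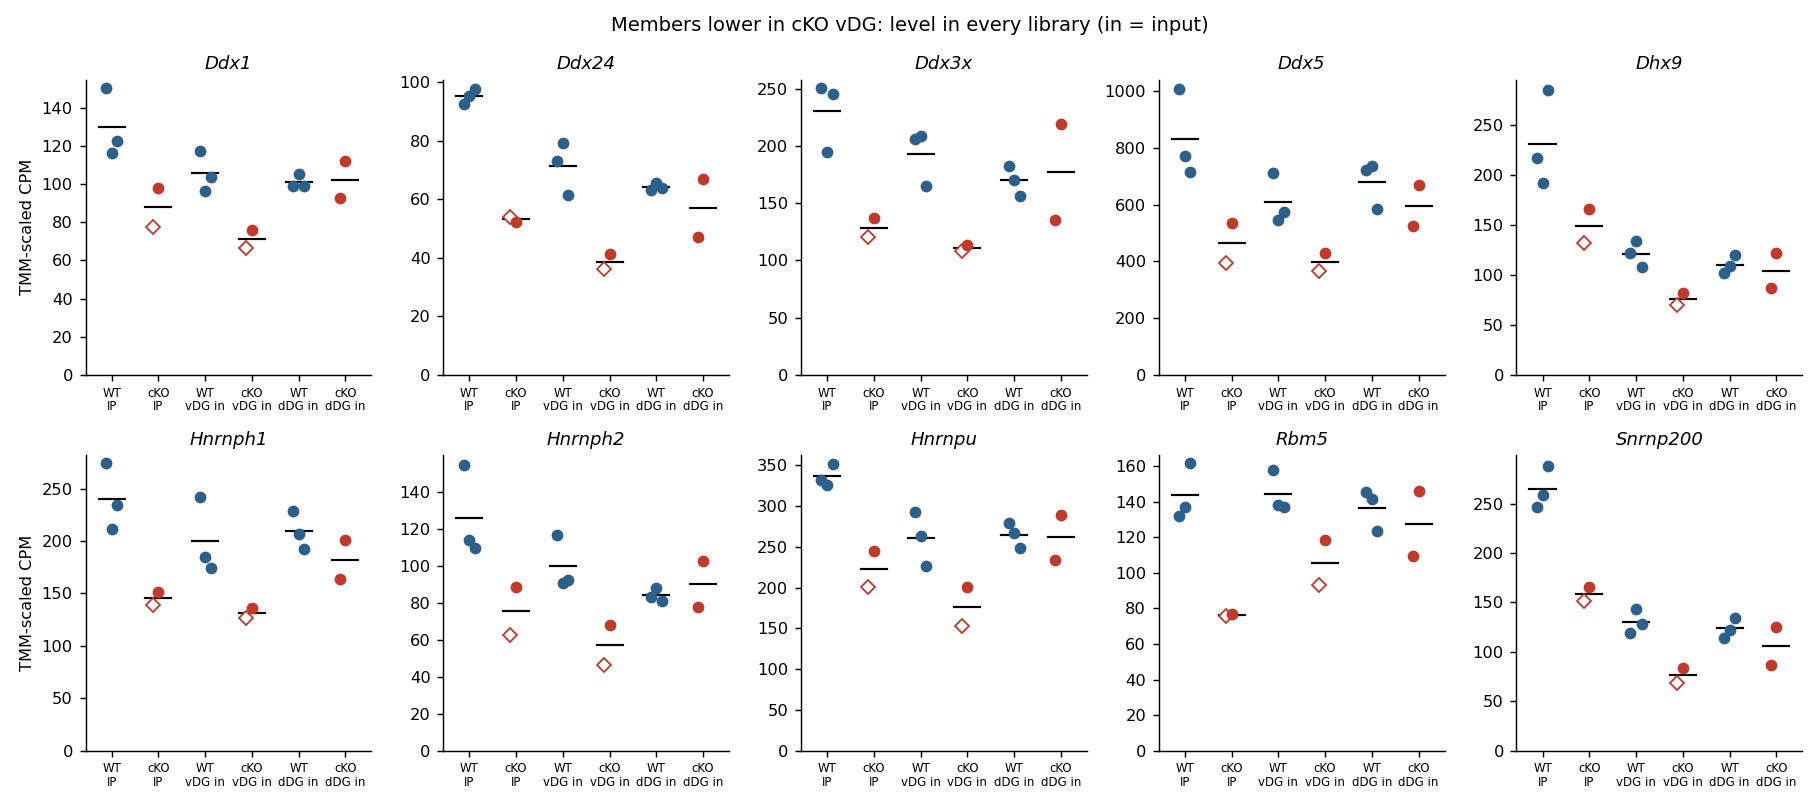
Level of the 10 members called lower in cKO vDG (IP or input), in CPM scaled by trimmed means (TMM), for WT (blue) and cKO (red) libraries of the 6 groups. Each point is a library, each bar a group mean, and open diamonds mark the cKO vDG libraries numbered 1, which had 0 Y-linked counts. In the vDG the cKO points lie below the WT points in IP and in input (for Rbm5 called in the IP only), while the groups overlap in the dDG for all 10.

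Among the DEAD-box helicases, 3 of 35 tested were called lower in the IP and 4 of 35 in the input, with family medians of -0.01 and -0.02 on the log2 scale beside -0.0019 and 0.01 for all genes. With scaling by library size alone the input median of this family became 0.0046, and without the libraries numbered 1 the medians over the same members were 0.03 in the IP and -0.04 in the input. Ddx24, a helicase of ribosome biogenesis (chromosome 12), had 92.4, 95.1 and 97.7 CPM in the WT IP against 54.0 and 52.3 in the cKO IP. In the input it had 73.1, 79.1 and 61.3 CPM in WT against 36.1 and 41.2 in cKO, a log2 difference of -0.87 ± 0.15 (SE; FDR 0.00344). The groups did not overlap in either fraction, and Ddx24 had the lowest adjusted p of all members in the input. Ddx3x, an X-linked helicase of translation initiation, had 251, 194 and 245 CPM in the WT IP against 120 and 137 in the cKO IP. Its input values were 206, 208 and 165 CPM in WT and 109 and 113 in cKO (log2 difference -0.79 ± 0.14, FDR 0.00383). Ddx3x was thus lower in both cKO pools, including the pool that had Y-linked counts, and without the library numbered 1 its differences were -0.76 (IP) and -0.75 (input). Ddx5 had 1009, 771 and 715 CPM in the WT IP against 393 and 534 in the cKO IP. In the input its levels of 711, 547 and 573 CPM (WT) and 365 and 429 CPM (cKO) gave a difference of -0.61 ± 0.14 (FDR 0.0169). Ddx5 had the highest level of all members, and of the 6 called in the IP it was the one whose difference shrank most without the library numbered 1, from -0.84 to -0.65. Ddx1, a helicase of tRNA splicing and RNA transport granules, was called in the input, at 117, 96.1 and 104 CPM in WT and 66.6 and 75.7 in cKO (-0.56 ± 0.13, FDR 0.0263). Its IP difference was -0.56 ± 0.16. At the other end of the family, Ddx41 had the highest input value (0.43, FDR 0.18), and 16 of 35 DEAD-box members had a value above 0 in each fraction. Ddx6, an abundant helicase of mRNA storage and decay, had differences of -0.01 (IP) and 0.04 (input).

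Ddx60, related to helicases that sense viral RNA, was near the detection limit. It had 9, 27 and 17 counts in the WT IP and 0 in both cKO IP libraries, so it was at least 5.16-fold lower in cKO when a floor of 3 counts per library is used, and it was not called. In the input it had 9, 6 and 15 counts in WT against 12 and 8 in cKO, so that the groups overlapped.

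The DEAH-box helicases had medians of -0.17 in the IP and -0.14 in the input, with 0 and 1 of 15 called. Dhx9, which unwinds RNA and RNA-DNA hybrids (chromosome 1), was the member called. It had 122, 133 and 108 CPM in the WT input and 69.8 and 81.5 in the cKO input, a difference of -0.67 ± 0.14 (FDR 0.00973). In the IP it had 217, 192 and 284 CPM in WT and 132 and 166 in cKO (-0.64 ± 0.17). Both fractions separated the genotypes completely for Dhx9, with the WT IP libraries spread more widely than the cKO libraries. Dhx15, which disassembles spliceosomes, had -0.51 ± 0.14 in the IP and -0.23 ± 0.14 (FDR 0.466) in the input. Dhx36, which unwinds G-quadruplexes, had -0.45 in the IP and -0.39 (FDR 0.167) in the input, and Dhx38, a splicing helicase, had -0.22 and -0.46 (FDR 0.253). Without the libraries numbered 1 the IP and input differences were -0.45 and -0.02 for Dhx15, -0.35 and -0.21 for Dhx36, and -0.13 and -0.31 for Dhx38. Not all members of the family lay below 0, since Dhx32 and Dhx35 had IP differences of 0.46 and 0.47, with input differences of 0.13 and -0.02. Without the libraries numbered 1 the medians of the same 15 members were -0.04 in the IP and -0.02 in the input.

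The hnRNPs had the lowest family medians, -0.25 in the IP and -0.17 in the input, and 16 of 21 had a value below 0 in each fraction. All WT and cKO libraries were separated, with cKO lower, for 12 hnRNPs (57.1%; 16% of all genes) in the IP and for 8 (38.1%; 19.1% of all genes) in the input, and with cKO higher for 3 and 1. Without the libraries numbered 1 the counts with cKO lower were again 12 and 8, beside 26.2% and 29.4% of all genes, and those with cKO higher were 3 and 2. Hnrnph1 and Hnrnph2 are close paralogs that bind G-rich RNA. Hnrnph1 (chromosome 11) had 274, 211 and 234 CPM in the WT IP against 139 and 152 in cKO. In the input its 242, 185 and 175 CPM (WT) and 126 and 136 CPM (cKO) gave a difference of -0.60 ± 0.14 (FDR 0.024). Hnrnph1 was called in both fractions, and its cKO libraries lay close together. The X-linked Hnrnph2 had 117, 90.5 and 92.2 CPM in the WT input and 46.0 and 68.1 in the cKO input (-0.79 ± 0.16, FDR 0.00817). In the IP it had 154, 114 and 110 CPM in WT against 62.5 and 88.6 in cKO (-0.74 ± 0.18). For Hnrnph2 the library without Y-linked counts was the lower of the cKO pair in each fraction, and without it the input difference was -0.53. Reads that matched more than 1 place were left out of the counts, so the split between these paralogs is uncertain. Hnrnpu, a nuclear scaffold protein that binds chromatin and RNA, was called in the input (293, 264 and 227 CPM in WT, 152 and 201 in cKO, -0.55 ± 0.14, FDR 0.0395) and had -0.60 ± 0.14 in the IP. Its input call was lost with library size alone (FDR 0.0655) and with a length trend removed (FDR 0.125). It was also lost without the WT input numbered 1 (FDR 0.0632) or 2 (FDR 0.0607). With DESeq2 Hnrnpu passed in the IP (FDR 0.00357). Hnrnpa2b1, which carries mRNA into dendrites, had -0.53 ± 0.15 in the input (FDR 0.0517) and -0.42 in the IP, and Hnrnpm had -0.52 (FDR 0.0848) and -0.57. Without the libraries numbered 1 the hnRNP medians were -0.25 in the IP and -0.09 in the input.

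For the SR proteins, 9 of 11 had a value above 0 in the IP and 9 of 11 in the input, with medians of 0.08 and 0.14, and none passed the test (lowest FDR 0.311 and 0.138, 2 and 1 members at an unadjusted p under 0.05). The lowest FDR in both fractions was that of Srsf2, which binds purine-rich exonic enhancers and can act in transcription. It had 101, 87.1 and 98.3 CPM in the WT IP against 119 and 131 in the cKO IP. In the input it had 77.4, 71.4 and 90.2 CPM in WT against 96.1 and 111 in cKO (0.39 ± 0.13, FDR 0.138). The groups did not overlap for Srsf2, with cKO above WT, and 25.3% of its exonic bases overlap genes on the other strand. Srsf1, the founding SR protein, was 1 of the 2 below 0 in the IP (-0.35) and in the input (-0.20, FDR 0.562). Srsf3, Srsf9 and Srsf12 had input values of 0.17, 0.27 and 0.27, with FDR 0.573, 0.517 and 0.418. Without the WT input library numbered 1, Srsf9 was 0.52 and was called higher (FDR 0.0485). Without the libraries numbered 1 the SR medians were 0.04 in the IP and 0.17 in the input.

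The single genes were both lower in the cKO IP. Snrnp200 (chromosome 2) had 247, 259 and 288 CPM in the WT IP against 152 and 166 in the cKO IP. Its input values were 119, 143 and 128 CPM in WT and 68.1 and 83.97 in cKO (-0.76 ± 0.14, FDR 0.00515). The difference was thus of like size in the fractions (-0.74 ± 0.13 in the IP), with no overlap of genotypes in either. Rbm5 (chromosome 9) had 132, 137 and 162 CPM in the WT IP and 75.5 and 76.8 in the cKO IP, the largest IP difference among members with at least 5 CPM (-0.92 ± 0.14). In the input it had 158, 138 and 137 CPM in WT and 93.2 and 118 in cKO, a smaller difference that missed FDR 0.05 (-0.43 ± 0.14, FDR 0.0936) and passed it with DESeq2 (FDR 0.0412) and without a count filter (FDR 0.0487). Without the cKO input library numbered 1 it was -0.27 (FDR 0.742). The genotype-by-fraction term for Rbm5 was -0.47 ± 0.19 (unadjusted p 0.0251 in the edgeR fit, FDR 1), and -0.62 ± 0.25 (FDR 1) without both cKO libraries numbered 1.

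**Figure D2:**
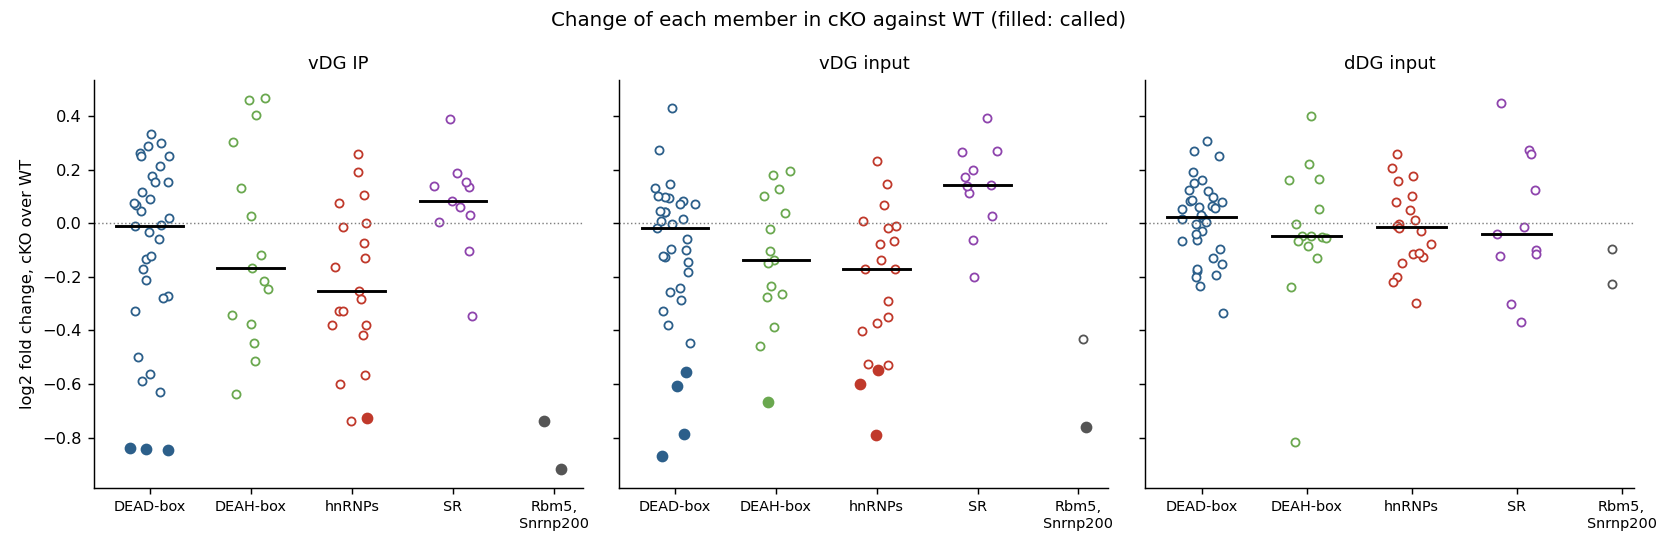
Log2 fold change of cKO over WT for each tested member, by family, in ventral IP, ventral input and dorsal input. Filled points were called (FDR 0.1 in the IP, 0.05 elsewhere), lines are family medians over all tested members, and Ddx60 and Hnrnpa1l2, both at very low counts, are not drawn. Called points lie between -0.92 and -0.55, all in the vDG.

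Across 82 members, which leave out Ddx60 and Hnrnpa1l2, the differences in the IP and the input had a Pearson r of 0.805 (Spearman rho 0.746), as a description over genes that come from libraries of the same number. Over all 14183 genes that passed the filter, low-count ones included, r was 0.357, so the sets behind these r values are not alike. Without the cKO libraries numbered 1 it was 0.681 over the members (rho 0.645) and 0.242 over all genes. Values were below 0 in both fractions for 39 of the 82 members and above 0 in both for 25, and for 35 and 27 without these libraries. A genotype-by-fraction interaction was called for 0 of 84 members and 0% of all genes, with 2 members (Ddx60 and Rbm5) at an unadjusted p under 0.05, and DESeq2 also called 0.

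In the dDG input, 0 of 82 members were called at FDR 0.05 (edgeR; 10 at an unadjusted p under 0.05, where 12.2% of all genes had such a p), where 0.026% of all genes were called lower and 0.0065% higher. DESeq2 called 1, Dhx16, a splicing helicase with 11.6, 8.66 and 9.55 CPM in WT and 6.17 and 5.09 in cKO (edgeR -0.81 ± 0.20, FDR 0.157). Groups did not overlap for 6 members with cKO lower (7.32%; 15.7% of all genes) and for 8 with cKO higher (9.76%; 13.7% of all genes). The family medians lay between -0.05 (DEAH-box) and 0.02 (DEAD-box), beside -0.02 for all genes. The members called in the vDG had dorsal differences from -0.23 (Snrnp200) to 0.10 (Hnrnph2). For Snrnp200 the dorsal WT libraries had 114, 122 and 135 CPM and the cKO libraries 86.7 and 125. Ddx24 had 63.2, 65.6 and 63.7 CPM in WT and 47.2 and 67.0 in cKO. For each of the 10 members called in the vDG, the dorsal cKO library numbered 1 lay below the WT range and the one numbered 2 lay within or above it. The share of all genes below the WT range in that library numbered 1 was not taken, so this does not set these members apart from other genes. Beside Dhx16, the members with the 3 largest dorsal differences in each family (at least 5 CPM) were Srsf5 (0.45 ± 0.14, FDR 0.208), Dhx33 (0.40, FDR 0.21), Srsf9 (-0.37, FDR 0.404), Ddx47 (-0.33, FDR 0.314), Ddx52 (0.31, FDR 0.348), Srsf6 (-0.30, FDR 0.483), Hnrnpa2b1 (-0.30, FDR 0.292), Ddx46 (0.27, FDR 0.396), Hnrnpdl (0.26, FDR 0.475), Dhx15 (-0.24, FDR 0.396) and Hnrnpm (-0.22, FDR 0.587). Leaving out 1 library moved 5 of these by over 1.5 times, with ranges of 0.090 to 0.43 for Ddx46, 0.13 to 0.40 for Hnrnpdl, -0.40 to -0.049 for Hnrnpm, -0.47 to -0.14 for Srsf6 and -0.53 to -0.23 for Srsf9.

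The test of whether the genotype difference itself differed between vDG and dDG called 0 of 85 members and 0% of all genes in edgeR, with 18 members at an unadjusted p under 0.05 (12.3% of all genes). The lowest were Hnrnph2 (ventral minus dorsal difference -0.91 ± 0.22, FDR 0.144), Ddx3x (-0.86 ± 0.22, FDR 0.15) and Dhx16 (0.98 ± 0.27, FDR 0.169). Without the ventral cKO library numbered 1 these were -0.66, -0.84 and 0.89, with a lowest FDR among them of 0.569. The Ddx3x value also rested on the dorsal cKO libraries, at -1.17 (FDR 0.0182) without the one numbered 1 and -0.48 (FDR 0.978) without the one numbered 2. DESeq2 called 4, which were Ddx1, Ddx24, Ddx3x and Hnrnph2. In the main edgeR fit a difference between the regions was not shown, while without a count filter edgeR called Ddx24, Ddx3x and Hnrnph2. The ventral and dorsal inputs share no library. The ventral cKO input numbered 1 had 0 counts of Ddx3y, while the dorsal cKO inputs had 411 and 336, so its pool was not the same as either dorsal pool. For the other pools nothing says that the ventral and dorsal tissue came from different mice. The members' differences in both regions had r = 0.184 across the 82 members, as a description. Across 15117 genes, low-count ones included, r was 0.102. Without the ventral cKO library numbered 1 these r values were 0.243 and 0.149.

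**Figure D3:**
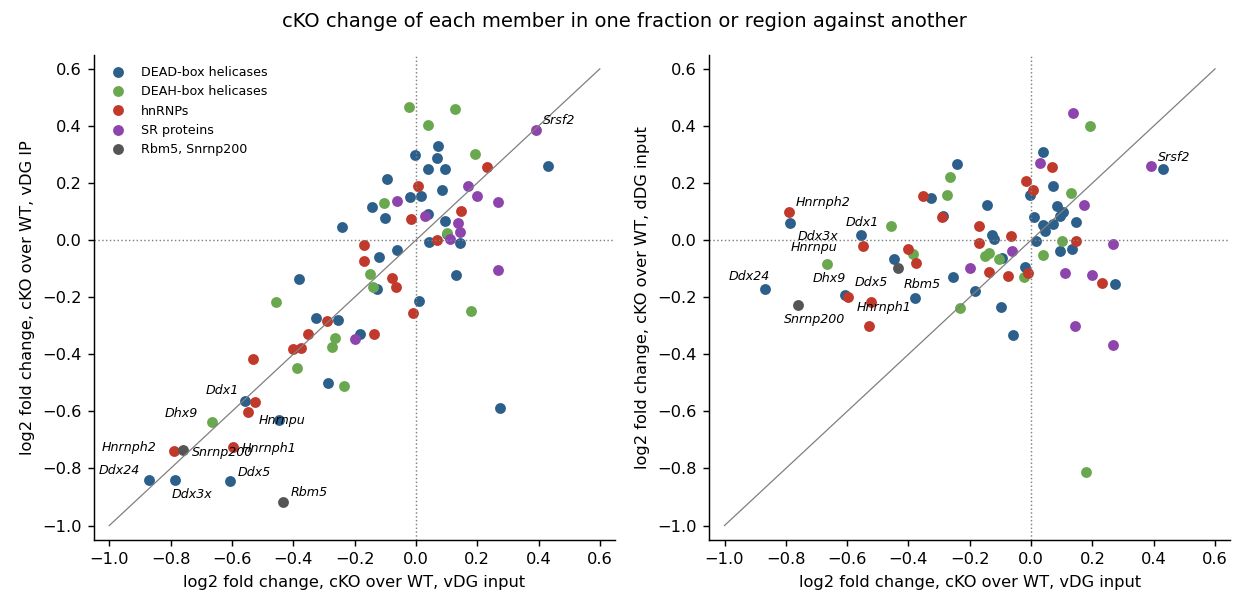
Log2 fold change of cKO over WT for each member in ventral input (x) against ventral IP (left, y) and dorsal input (right, y). Points are coloured by family, the solid line marks equal values, the members called in the vDG and Srsf2 are named, and Ddx60 and Hnrnpa1l2 are not drawn. Over the members r is 0.805 at left, where Rbm5 lies below the line (-0.92 in the IP, -0.43 in the input), and 0.184 at right, where the members called in the vDG lie between -0.23 and 0.10 on the dorsal axis.

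The comparison of IP with input showed which members were carried on the ribosomes of the labelled neurons more than in the whole vDG. In WT mice, 16 of 84 members were higher in the IP at FDR 0.05 and 1 was lower, where 7.73% of all genes were called higher and 16.1% lower. In cKO mice, 19 of 83 were higher and 5 lower, where 11.8% of all genes were higher and 15.7% lower. With the study's fold limits (enriched when higher by at least 25%, depleted when under 0.5-fold), 16 members were enriched and 1 depleted in WT (7.72% and 11.4% of all genes), and 18 and 1 in cKO (11.4% and 10.7%; 6 and 1 members without the cKO input library numbered 1, beside 6.77% and 5.33%). The calls of WT and cKO shared 13 members. Scaling by library size alone, under which the median of all genes moved to -0.13 in WT and -0.20 in cKO, gave 8 higher and 2 lower in WT and 8 higher and 9 lower in cKO.

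The DEAH-box helicases were the family called most often, with 10 of 15 (66.7%) higher in the IP in WT and 10 of 15 in cKO, and medians of 0.49 and 0.50. With library size alone 7 and 6 of them were called. Dhx9 had 192 to 284 CPM in the WT IP and 108 to 133 in the WT input, a difference of 0.91 ± 0.15 (FDR 0.000601), and 0.92 ± 0.13 in cKO (FDR 0.000273). Dhx8, which releases spliced mRNA, had 40.9, 42.6 and 50.6 CPM in the WT IP against 26.2, 29.1 and 24.4 in the input (0.72 ± 0.14, FDR 0.00162), and 0.74 ± 0.14 in cKO. The others called in both genotypes were Dhx37 (0.71 in WT, 0.93 in cKO), Dhx29 (0.64 and 0.54), Dhx36 (0.60 and 0.52), Dhx30 (0.51 and 0.47), Dhx57 (0.50 and 0.38) and Dhx33 (0.49 and 0.58). Dhx29 acts in translation initiation on structured leaders, Dhx30 in mitochondrial ribosome assembly and Dhx37 in assembly of the small ribosomal subunit. Dhx15 (0.49) and Dhx40 (0.36) were called in WT only and Dhx38 (0.71) and Dhx32 (0.50) in cKO only. No genotype-by-fraction difference was called for any of them. With the library number as a block, Dhx40 was called in cKO (FDR 0.0408) and not in WT (FDR 0.065).

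Snrnp200 had the largest increase of IP over input among all members, 1.0 ± 0.12 in WT (FDR 4.19e-05) and 1.01 ± 0.12 in cKO (FDR 8.35e-05). Every IP library of each genotype lay above every input library of the same genotype. The DEAD-box helicases had medians of 0.26 (WT) and 0.24 (cKO), with Ddx46, a splicing helicase of early spliceosome assembly, called in both (0.49 and 0.76) as was Ddx24 (0.39 and 0.41). With library size alone the DEAD-box medians were 0.13 and 0.07, calls higher fell from 4 and 5 to 0 and 1, and Ddx46 in WT had 0.35 (FDR 0.0792). The WT call of Ddx46 was also lost without the input library numbered 3 (0.40, FDR 0.0836). The hnRNPs had medians of 0.21 and 0.20 with 1 and 3 called higher, of which Hnrnpk was called in both (0.35 and 0.36). With library size alone the hnRNP medians were 0.08 and 0.03 and 0 were called higher in either genotype, and Hnrnpk had 0.22 (FDR 0.192) and 0.19 (FDR 0.283). The call of Hnrnpk was also lost without the WT IP library numbered 1 or any 1 of the WT inputs (FDR 0.0701 to 0.129), and in cKO without the input library numbered 1 (0.22, FDR 0.273) or the IP library numbered 2 (0.28, FDR 0.146). The SR proteins had medians of -0.01 and -0.10 and none was called higher. In cKO, without the input or the IP library numbered 1, the medians were 0.47 and 0.60 (DEAH-box), 0.17 and 0.28 (DEAD-box), 0.11 and 0.24 (hnRNPs) and -0.14 and -0.06 (SR proteins).

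The member depleted in the IP of both genotypes was Ddx26b, with 17.6, 17.5 and 15.3 CPM in the WT IP against 58.1, 37.3 and 27.3 in the WT input (-1.31 ± 0.22, FDR 0.000601), and -1.58 ± 0.15 in cKO (FDR 1.01e-05). In cKO, Srsf9 (-0.55, FDR 0.0113), Rbm5 (-0.53, FDR 0.00776), Hnrnpa1 (-0.45, FDR 0.00555) and Ddx17 (-0.32, FDR 0.0401) were also lower in the IP, with WT values of -0.16, -0.03, -0.19 and -0.16. The cKO value of Rbm5 was -0.35 (FDR 0.0977) without the input library numbered 2. In cKO without the input library numbered 1, 12 members were called in place of 24, with 6 higher and 6 lower in place of 19 and 5 (6.77% and 7.62% of all genes), and 4 of the 12 were DEAH-box. Without the IP library numbered 1, 27 were higher and 4 lower (12.1% and 14.9% of all genes), 10 of them DEAH-box. The inputs were taken from homogenate before the IP, so that an input and an IP library can share mice. With the library number as a block, 36 members were higher and 10 lower in cKO, where the block leaves 1 residual degree of freedom per gene and calls 37.8% of all genes in place of 27.5%. In WT 12 were higher and 1 lower, with Ddx5 (FDR 0.0306) gained and Ddx21, Ddx24, Dhx40, Dhx57 and Hnrnpk lost (FDR 0.0514 to 0.0726).

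**Figure D4:**
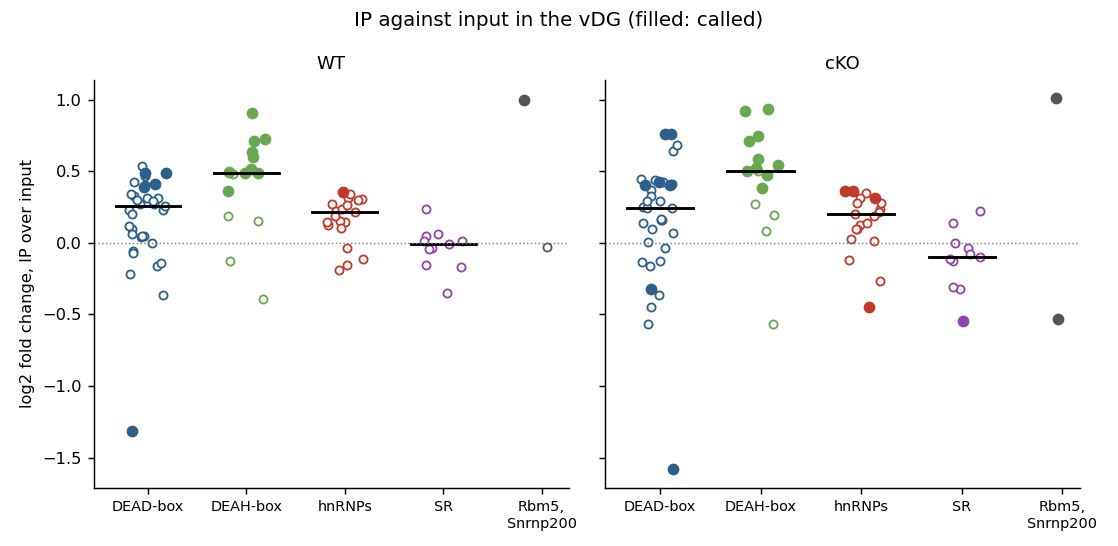
Log2 fold change of IP over input in the vDG for each tested member, by family, in WT (left) and cKO (right). Filled points were called at FDR 0.05, lines are family medians over all tested members, and Ddx60 and Hnrnpa1l2 are not drawn. The DEAH-box median lies at 0.49 and 0.50, above those of the other families, and Ddx26b is the lowest point in both panels.

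Other genes of RNA processing were read from 4 lists that are not members. Of the core spliceosome genes, 0 of 42 were called in the ventral IP and 3 of 43 in the ventral input, all lower in cKO (Aqr -0.73, Prpf6 -0.70 and Eftud2 -0.56). SR-related proteins and SR protein kinases had 0 of 28 called in each. Of other splicing regulators, the cold-induced Rbm3 was higher in the IP (0.63) and the input (0.75), and Taf15 (-0.69) and Matr3 (-0.66) were lower in the input, of 39 tested. Of exon junction, decay and cap-binding genes, 0 of 22 were called in the IP and 3 in the input, all lower (Aqr, Upf3b -0.64 and Skiv2l2 -0.64). The medians of these lists lay between -0.07 and 0.01 in both fractions, and 0 genes of any of the 4 lists were called in the dDG. Without the libraries numbered 1, 0 genes of the 4 lists were called in either ventral fraction, with Rbm3 at 0.65 and 0.78 and Aqr at -0.82 in the input. In IP over input in WT, 13 of 42 core spliceosome genes were higher and 0 lower, led by Prpf8 (1.33), Snrpb (0.72) and Sf3b3 (0.67), and in cKO 16 were higher and 0 lower (7 higher without the input library numbered 1), where 7.73% (WT) and 11.8% (cKO) of all genes were higher. SR-related genes (28 tested) had 5 higher and 2 lower in WT and 10 and 3 in cKO. Other splicing regulators (39 tested) had 5 and 3 in WT and 7 and 6 in cKO. Exon junction, decay and cap-binding genes (22 tested) had 5 and 0 in WT and 11 and 0 in cKO. In each of these lists fewer genes were called higher in cKO without the input library numbered 1. Of all genes, 16.1% (WT) and 15.7% (cKO) were called lower.

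Other measures moved with genotype in the vDG. Summed astrocyte markers (6 of 6 detected) were 434 to 521 CPM in the WT input and 309 to 339 in the cKO input, and 58.0 to 102 and 48.9 to 62.3 CPM in the IP. Interneuron markers (6 genes) were 446 to 496 CPM in the WT input and 364 in both cKO inputs, with 165 to 187 and 115 to 131 CPM in the IP. Microglial markers (6 genes) were 23.2 to 38.0 and 15.0 to 21.4 CPM in the input. Of these markers, Slc1a3, Gja1 and Aqp4 (astrocytes) were called lower in the cKO input and Gad2 (interneurons) in the cKO IP. Without the cKO libraries numbered 1 their differences were -0.86, -0.60, -0.76 and -0.89. Markers of CA pyramidal cells (4 genes) were higher in the cKO IP, at 7.87 to 9.39 CPM in WT and 12.4 to 12.6 in cKO, and overlapped in the input (7.13 to 10.5 and 10.35 to 12.2 CPM). Granule cell markers (7 genes) were 2348 to 2685 CPM in the WT IP and 2672 to 2860 in the cKO IP, with overlap, while 1 of them, Dsp, was called lower in the cKO input (-0.94, FDR 0.0156; -0.71 and FDR 0.36 without the cKO library numbered 1). The choroid plexus marker Ttr was called higher there (1.11, FDR 0.0372), with overlapping groups, and was 1.61 without that library. Of the 4 choroid plexus markers tested in the ventral input, 2 were higher and 2 lower in cKO. The sum over the 5 genes of that list overlapped, at 23.25 to 29.0 CPM in the WT input and 21.8 to 35.7 in the cKO input. The cKO libraries numbered 2 alone had astrocyte sums of 308.9 (input) and 48.9 CPM (IP), interneuron sums of 364 and 131 CPM, and a CA pyramidal sum of 12.4 CPM in the IP, each outside the WT range. Long genes and genes of low GC content were lower in cKO vDG than short and GC-rich ones. In the input the median over the longest tercile of all genes was -0.07 and over the shortest 0.10, and over low-GC and high-GC genes -0.05 and 0.07. The members followed the same order, at -0.24 for the 34 with low GC and 0.08 for the 19 with high GC. Without the cKO input library numbered 1 these were -0.10 and 0.12, and the medians of the longest and shortest terciles of all genes were -0.07 and 0.05. In the dDG the order of all genes was the opposite, with 0.06 for low-GC and -0.12 for high-GC genes. In the dDG, choroid plexus markers (5 genes) were 31.9 to 148.8 CPM in WT and 18.0 to 22.6 CPM in cKO. The part of cell composition, length and GC content in the members' differences was not tested beyond the removal of a length trend, after which 10 members were called in the IP (0.874% of all genes) and 8 in the input (1.79% of all genes). With the replicate block as well these were 13 (2.08%) and 2 (0.234%).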

How the data were processed

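Files of raw counts per gene were deposited by the authors, who amplified cDNA without molecular identifiers, aligned reads to mm10 with STAR 2.4.2a, removed duplicates with SAMtools 0.1.19-444 and counted reads with HTSeq in union mode, per the labels and the study's methods. Reads on no gene (11.3% to 18.7% of each library's total), ambiguous reads (2.50% to 8.60%) and reads that aligned to more than 1 place (9.28% to 13.4%) are not in the counts, which can lower paralogs. Ambiguous reads were 2.50% to 2.75% in the IP libraries and 5.62% to 8.60% in the inputs. Reads on no gene were 11.3% to 12.9% in the IP libraries and 15.2% to 18.7% in the inputs. The part of this split in the differences of IP over input was not tested. HTSeq ran with its default settings on libraries from a kit that does not mark strand, so for 5 members with over 20% of exonic bases under genes on the other strand (Ddx49, Hnrnpab, Hnrnpf, Srsf2 and Srsf4) the reads cannot be told apart. The percent GC of each gene was taken from a column deposited by the authors. Their tables of fold changes and p-values were not used, nor were 25 columns of per-sample values.

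The members and gene lists were chosen with earlier results of these data known. Genes that passed filterByExpr were tested with edgeR 4.0.16 (R 4.3.3, TMM factors 0.901 to 1.08, quasi-likelihood F-test, Benjamini-Hochberg FDR over all genes tested), within the groups compared, at FDR 0.1 for genotype in the IP and 0.05 elsewhere. Interactions used all 4 groups involved. Levels are TMM-scaled CPM, and per kb they are divided by exonic length in GENCODE M21 (85 members). Inputs came from homogenate before the IP, per the labels and the study's methods. The methods give pools of 1 male and 1 female mouse per replicate, whereas the sample records give 3 mice per IP library and 2 per input library. Nothing states that a number marks the same mice, and the deviations of same-numbered libraries settle it only in part. Nothing says that replicate pools came from separate cohorts, so p-values measure the spread between these libraries. Alternatives were other scalings, DESeq2 1.42.0, other filters, a replicate block, 1 fit to 15 libraries, removal of a length trend (loess, span 0.5), the other FDR threshold and each library left out, and, chosen after seeing the data, both cKO vDG libraries numbered 1 left out together for the genotype-by-fraction term. Named with values were Rbm5 and Snrnp200, in each family the 3 members with the largest genotype difference (at least 5 CPM), the 3 with the highest level per kb and the 2 with the largest called IP over input difference, and all members of short lists. Others were picked after their values were seen. The fit was tested on simulated data.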

Additional observations from a re-analysis of the deposited data

How the results depend on the processing

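Calls of genotype in the ventral IP (6 members) were 10 with library size alone, 14 with DESeq2, 14 without a count filter, 15 in 1 fit to all libraries, 10 with the length trend removed, 13 with that and the replicate block, and 0 at FDR 0.05, and leaving out 1 library gave 0 to 9. Calls in the ventral input (9 members) were 4 in 1 fit to all libraries (Ddx24, Ddx3x, Hnrnph2 and Snrnp200) and 2 with the length trend removed and the replicate block (Ddx24 and Ddx3x), and leaving out 1 library gave 0 to 10 (1 of 8 higher, Srsf9, without the WT library numbered 1). Calls in the dDG (0 members) were 1 with DESeq2 (Dhx16), 3 without a count filter (Dhx16, Dhx33 and Srsf5) and 3 with the length trend removed and the replicate block (Dhx16, Dhx33 and Srsf6), and leaving out 1 library gave 0 to 1 (Srsf5 or Dhx33). Calls of IP against input in WT (17) were 10 with library size alone, 28 in 1 fit to all libraries, 27 with the length trend removed, 30 with that and the replicate block, and 26 at FDR 0.1, with 10 to 20 when 1 library was left out (10 without the input library numbered 3). In cKO (24) they were 46 with the replicate block and 48 with that and the length trend removed, with 12 to 31 when 1 library was left out. The genotype-by-region term (0) had 4 calls with DESeq2 (Ddx1, Ddx24, Ddx3x and Hnrnph2), 3 without a count filter (Ddx24, Ddx3x and Hnrnph2) and 0 to 1 when 1 library was left out (Ddx3x), and the genotype-by-fraction term had 0 under every alternative run. Calls over all genes moved with those of the members. In the IP they were 60, and 115, 374, 379, 470, 125, 297 and 0 in the order given above, and 0 to 184 when 1 library was left out. In the input they were 385, and 140 and 37, and 6 to 638. The cause of these shifts was not tested. In 1 fit to all libraries, Dhx32 was among the members called in the ventral IP and was higher in cKO (0.45, FDR 0.0997).

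The median of the members in the ventral IP (-0.07) was -0.096 with library size alone, -0.12 with the replicate block, -0.026 with the length trend removed, -0.096 with that and the block, and -0.13 to -0.015 when 1 library was left out (over the members tested in each fit). In the ventral input (-0.06) it was -0.011 with the length trend removed and the block, and -0.13 to -0.026 when 1 library was left out. In the dDG (-0.01) it was 0.019 with the length trend removed and the block. In WT, IP over input (0.22) was 0.091 with library size alone, 0.17 with 10 counts in every library, 0.27 in 1 fit, 0.29 with the length trend removed, 0.28 with that and the block, and 0.14 to 0.28 when 1 library was left out. In cKO (0.22) the same settings gave 0.047, 0.17, 0.27, 0.27, 0.27 and 0.14 to 0.31.

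Signs turned for values near 0. In the dDG, leaving out 1 library gave -0.31 to 0.089 for Rbm5 and -0.50 to 0.0095 for Snrnp200, with the highest value without the cKO library numbered 1. In WT, Rbm5 in IP over input became 0.00052 with DESeq2, 0.023 in 1 fit to all libraries, and -0.11 to 0.046 when 1 library was left out, above 0 without the IP library numbered 1 or 2 or the input library numbered 1. Same-numbered WT libraries did not all deviate together (IP and input: r = 0.464, -0.164 and -0.329), nor did WT and cKO (-0.176 to -0.00232) or the WT inputs of both regions (0.384, -0.111 and 0.219). The cKO IP and input did (r = 0.441, a single value, since with 2 libraries a group the deviations mirror each other), as their Y-linked counts also pair them, so the unblocked cKO count of 24 ignores a pairing. The values given first are without the block, which the study's methods do not mention. It gave 7, 11, 0, 13 and 46 calls in the order above, and 0 for both interactions.

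With 3 WT and 2 cKO libraries and a cKO pool without Y-linked counts, genotype, pool and sex cannot be fully told apart in the vDG. Counts of 0 to 27 limit Ddx60. No molecular identifiers were used, so floors cover counting error only.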
